A study of Mus musculus and Homo sapiens with 18 samples.

Results

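This account follows 10 genes of bone morphogenetic protein (BMP) signalling after deletion of Qk, the mouse gene of the RNA-binding protein Qki, or of its human counterpart QKI. The genes were chosen by name: the ligands Bmp4 and Bmp7, the receptors Bmpr1a and Bmpr2, the inhibitory SMADs Smad6 and Smad7, and the ID genes Id1, Id2, Id3 and Id4, written in capitals for human cells. They are 10 of 46882 genes counted in mouse lens tissue, 10 of 54838 in NLPCs, lens progenitor-like cells differentiated from neural stem cells, and 10 of 60880 in HLE-B3, an immortalized human lens epithelial line. The study asked how loss of Qki acts on lens cells, and RNA-seq covered 18 libraries, 3 of a control group and 3 of a deletion group in each of the 3 systems. Ctrl lenses came from Nestin-CreERT2; QkL/+ mice and Qk-iCKO lenses from Nestin-CreERT2; QkL/L mice. Both groups received tamoxifen on postnatal days 7 and 8 and were dissected on postnatal days 17 to 19, and the Nestin promoter restricts Cre to Nestin-positive cells, so that whole lenses also hold cells that were not targeted. NLPCs were made from neural stem cells of whole newborn brain of Nestin-CreERT2; QkL/L mice, and the libraries labelled Qk-/- came from stem cells given 100 nM 4-hydroxytamoxifen. All NLPC cultures, WT and Qk-/-, were given 100 ng/ml Noggin, a BMP antagonist, for 6 days and then 100 ng/ml bFGF with BMP4 and BMP7, each at 20 ng/ml, for 12 days, so BMP protein was supplied in both groups. QKI KO HLE-B3 cells carried a lentiviral CRISPR/Cas9 construct and were enriched with puromycin, with no statement on whether they are 1 clone, and the line was grown in medium with serum. Each lens group came from 3 mice, per the study's methods, which describe the animal and cell line work as independently replicated, while the labels do not say how the NLPC and HLE-B3 replicates were made. The p-values therefore measure the spread between these libraries, which in the cultures may be partly technical.

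BMP ligands bring together type I receptors, such as BMPR1A, and type II receptors, such as BMPR2. The active complex phosphorylates SMAD1, SMAD5 and SMAD9, which join SMAD4 in the nucleus and switch on target genes, among them the ID genes and the inhibitory SMADs, and SMAD6 and SMAD7 then dampen the signal. ID proteins have no DNA-binding domain and hold E proteins, their helix-loop-helix partners, away from DNA. BMP signalling is known for its part in forming the lens from surface ectoderm and in lens fibre differentiation, and for driving neural stem cells toward astrocytes.

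The start regions of the ID genes are shown because members of this family moved apart between the systems, and those of ID1 and BMP4 because both changed in HLE-B3 cells. Each window runs from 250 bases before the start to 50 bases after it, 5′ to 3′ on the gene's strand. The mouse windows are from RefSeq (GRCm38.p6), and windows of 7 of the 10 genes were used (none for Id1, Bmp7 and Smad7). The human windows were read from GRCh37 at the canonical transcript of the GENCODE annotation. Capitals mark GGCGCC, a GC-rich element to which BMP-activated SMADs can bind. Id2 lies at chr12:25096043-25096342 on the minus strand, Id4 at chr13:48260866-48261165 on the plus strand and Id3 at chr4:136143572-136143871 on the plus strand of the mouse genome. ID1 lies at chr20:30192842-30193141 on the plus strand and BMP4 at chr14:54423494-54423793 on the minus strand of the human genome.
Mouse Id2: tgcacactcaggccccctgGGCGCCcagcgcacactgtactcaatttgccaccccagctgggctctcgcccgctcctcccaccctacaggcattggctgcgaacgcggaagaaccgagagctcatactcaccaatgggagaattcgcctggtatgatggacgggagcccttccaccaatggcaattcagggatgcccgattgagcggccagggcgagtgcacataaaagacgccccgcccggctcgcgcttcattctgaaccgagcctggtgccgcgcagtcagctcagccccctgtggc
Mouse Id4: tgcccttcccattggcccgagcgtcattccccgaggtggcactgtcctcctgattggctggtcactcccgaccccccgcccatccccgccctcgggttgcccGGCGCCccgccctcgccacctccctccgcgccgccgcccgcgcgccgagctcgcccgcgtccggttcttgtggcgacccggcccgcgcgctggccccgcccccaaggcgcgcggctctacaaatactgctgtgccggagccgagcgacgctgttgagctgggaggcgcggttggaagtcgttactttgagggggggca
Mouse Id3: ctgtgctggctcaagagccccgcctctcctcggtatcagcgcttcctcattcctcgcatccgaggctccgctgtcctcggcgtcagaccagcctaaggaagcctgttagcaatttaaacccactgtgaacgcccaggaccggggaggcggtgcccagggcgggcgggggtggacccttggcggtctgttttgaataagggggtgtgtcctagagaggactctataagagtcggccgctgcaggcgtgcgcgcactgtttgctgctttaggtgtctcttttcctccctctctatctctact
Human ID1: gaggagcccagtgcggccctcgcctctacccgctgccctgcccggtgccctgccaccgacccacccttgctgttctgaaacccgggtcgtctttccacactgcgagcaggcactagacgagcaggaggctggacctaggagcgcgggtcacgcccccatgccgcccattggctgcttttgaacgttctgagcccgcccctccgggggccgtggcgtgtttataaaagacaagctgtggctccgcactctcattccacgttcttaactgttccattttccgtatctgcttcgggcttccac
Human BMP4: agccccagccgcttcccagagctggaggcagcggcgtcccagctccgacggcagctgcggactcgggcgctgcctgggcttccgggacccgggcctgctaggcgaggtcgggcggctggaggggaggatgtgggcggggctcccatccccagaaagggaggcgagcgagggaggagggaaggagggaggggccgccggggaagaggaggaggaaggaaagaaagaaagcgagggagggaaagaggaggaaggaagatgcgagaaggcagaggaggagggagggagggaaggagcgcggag
GGCGCC reads the same on both strands. It stood once in the mouse Id2 window, at position −231 from the start, and once in that of Id4, at −148, and was not found in that of Id3. It was in 4 of the 7 mouse windows of these genes (Bmpr1a, Bmpr2, Id2 and Id4), against 11.9% of 32841 mouse promoters, and in 2 of the 10 human windows (BMPR1A and BMPR2), against 26.2% of 19874. The mouse promoters were not filtered by gene type here, while the human ones are of protein-coding genes only, so the shares of mouse and human promoters rest on unlike sets. The SMAD box GTCT, searched on both strands, was in 5 of 7 mouse and 7 of 10 human windows (88% and 82.2% of all), and the E-box CANNTG, which can share bases with it, in 3 of 7 and 8 of 10 (72.3% and 63.7% of all). A match describes the letters of a window, not a bound site.

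Library depth, as total counts, was lowest for lens tissue (10319320 to 16425331), higher for NLPCs (28154202 to 68243360) and highest for HLE-B3 cells (69190864 to 81384471). Qk-iCKO lens 1 stood apart, with a TMM scaling factor (trimmed mean of M-values) of 1.478 where the remaining 5 lenses had 0.888 to 0.962, and with 56.3% of counts in crystallin genes against 64.7 to 66.9%. The summed level of 8 macrophage markers was 1.71 to 2.95 CPM (reads scaled to a common library size by TMM) in Ctrl and 68.0 to 82.1 in Qk-iCKO lenses, with 6 of the 6 tested higher, and that of 8 endothelial markers was 10.9 to 15.8 and 19.8 to 30.4, with 2 of 6 higher. The sum of 6 lens epithelium markers was 174 to 222 and 162 to 220 with none called. That of 13 lens fibre markers was 409877 to 431222 in Ctrl and 211151 to 387612 in Qk-iCKO lenses (1 of 12 tested lower). That of 6 astrocyte markers was 626 to 684 and 277 to 338 (1 of 5 lower). The median log2 fold change of the tested markers was −0.45 for fibre and 0.077 for astrocyte markers, so the astrocyte sum does not stand for its list. Summed levels of 6 pigment cell markers were 27.5 to 34.8 CPM in Ctrl lenses and 146, 37.6 and 22.7 in Qk-iCKO lenses 1, 2 and 3 (1 of 4 tested lower). Those of 6 photoreceptor markers were 2.13 to 589 CPM in Ctrl and 13.7 to 87.0 in Qk-iCKO lenses, with 0 of 6 called. The part of these 2 lists in the lens results was not tested. Counts of 4 Y-linked genes were 0 to 3 in the Ctrl lenses and in Qk-iCKO lens 1 but 1051 and 930 in Qk-iCKO lenses 2 and 3. By these counts Qk-iCKO lenses 2 and 3 were from males, and the Ctrl lenses and Qk-iCKO lens 1 from females. Sex was thus not balanced between the lens groups, and its part in the lens results was not tested. In the NLPCs 12 of 13 lens fibre markers and 3 of 6 lens epithelium markers, Foxe3 among them, averaged under 1 CPM. The epithelium list summed to 370 to 419 CPM in WT and 246 to 435 in the libraries labelled Qk-/-. Astrocyte markers summed to 7391 to 10760 CPM over both groups. The lens label thus rests on few of the fixed fibre markers and on part of the epithelium list. In HLE-B3 cells 11 of 13 fibre markers and 3 of 6 epithelium markers, FOXE3 among them, averaged under 1 CPM. The epithelium list there summed to 259 to 295 CPM in WT and 307 to 317 in QKI KO cells. Qk in the lens was 116 to 127 CPM in Ctrl and 86.9 to 106 in Qk-iCKO lenses (log2 fold change −0.31, SE 0.14, adjusted p = 0.200). In the libraries labelled Qk-/- of the NLPCs Qk was higher than in WT, by 0.41 (SE 0.091, adjusted p = 0.0270), positive under each alternative (0.37 to 0.48), although the call was lost when any library but number 2 of the deletion group was left out (adjusted p 0.09495 to 0.173) and with no filter on low counts (0.203). QKI was lower in QKI KO cells by −1.34 (SE 0.054, adjusted p = 1.85e-11). These counts cover the whole gene and not exon 2 alone, which the loxP sites flank in the mouse, so they do not measure the deletion itself. At the protein level the study reported almost complete loss of Qki-5, and a smaller loss of Qki-6, in lens cells marked by a Cre reporter. It also reported complete loss of Qki in neural stem cells and NLPCs given 4-hydroxytamoxifen. Except where DESeq2 is named, p-values here and below are from edgeR's quasi-likelihood test with Benjamini-Hochberg adjustment over all genes tested. Fold changes are deletion minus control on the log2 scale.

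In the lens Id2 fell after Qk deletion, and no other of the 10 genes passed an adjusted p of 0.05. In the NLPCs Id1 rose in the libraries labelled Qk-/-, and in HLE-B3 cells BMP4, SMAD6 and ID4 rose and ID1 fell. Hence 1 of 10 genes tested was called in the lens (12.3% of all genes there), 1 of 9 in the NLPCs (10.7%) and 4 of 9 in HLE-B3 cells (33.3%). These shares lie near the background of their systems, and at n = 3 the counts say little about the genes as a group. The groups did not overlap in 2 of 10, 4 of 9 and 5 of 9 genes, against 35.3%, 35.2% and 44.6% of all genes tested. The median log2 fold change of the tested members was 0.069, 0.023 and 0.010, and that of all genes 0.0064, 0.040 and −0.020. In bulk samples, fewer cells of a type and less RNA per cell cannot be told apart. The plot of differences with their intervals shows how the genes split.

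**Figure D1:**
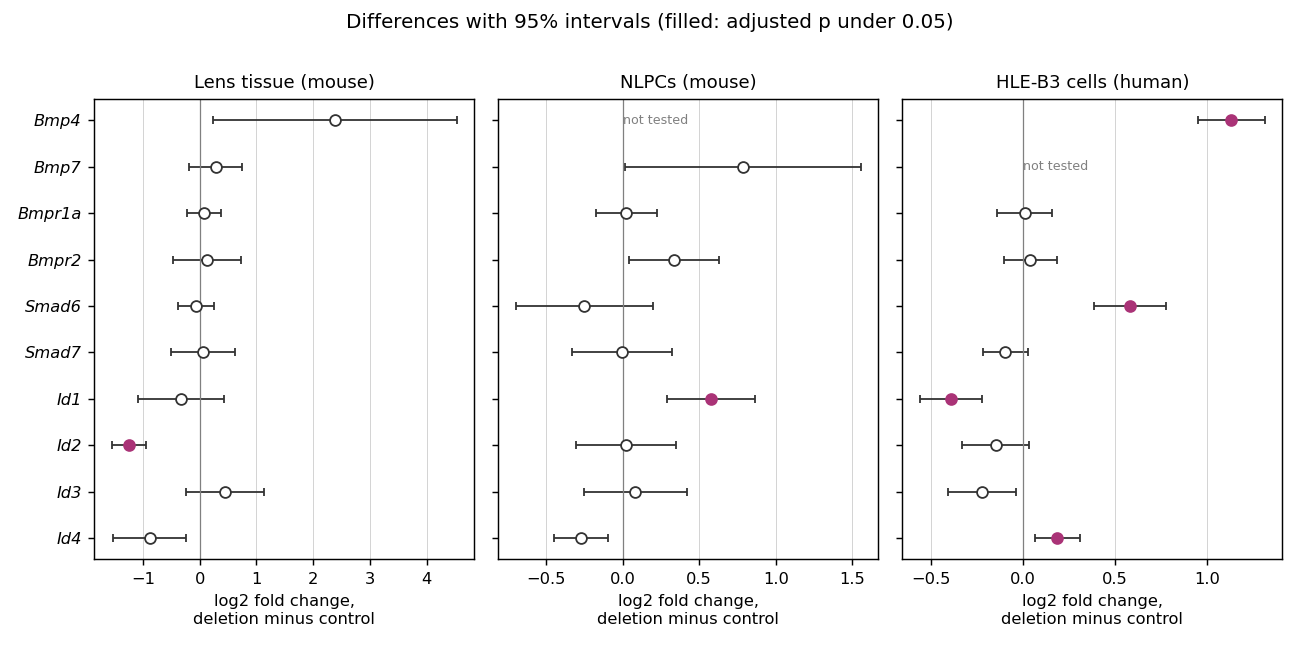
Log2 fold change, deletion minus control, of each gene in lens, NLPCs and HLE-B3 cells, with 95% intervals from edgeR (n = 3 libraries per group); filled points have an adjusted p under 0.05, and the x axes differ in range between panels. The filled points are Id2 in the lens (−1.25), Id1 in the NLPCs (0.58), and BMP4 (1.13), SMAD6 (0.58), ID1 (−0.39) and ID4 (0.19) in HLE-B3 cells.

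The ordering of the genes by level differed between the systems, as read in control libraries in CPM per kilobase of merged exons, the scale on which genes of unlike length can be set side by side. In Ctrl lenses the ID genes led, with Id2 at 12.8, Id1 at 11.5 and Id3 at 9.65, followed by Bmpr1a at 7.75, Bmp7 at 4.73, Smad6 at 4.07 and Bmpr2 at 1.67. Smad7 at 1.10, Id4 at 1.02 and Bmp4 at 0.358 came last. Neighbours whose 3 libraries overlapped in this order were Id2 and Id1, Id1 and Id3, Bmp7 and Smad6, and Smad7 and Id4. In WT NLPCs the type I receptor Bmpr1a led at 89.0, ahead of Id1 at 69.0, Id3 at 47.4, Id4 at 40.0, Id2 at 32.9 and Bmpr2 at 27.5. A gap then separated Smad7 at 1.97, Smad6 at 1.54, Bmp7 at 1.27 and Bmp4 at 0.00350. Only Id2 with Bmpr2, and Smad6 with Bmp7, overlapped among neighbours there. In WT HLE-B3 cells ID3 at 75.7 and ID4 at 75.6 overlapped at the top, above ID1 at 57.6, ID2 at 42.0, SMAD7 at 33.5 and BMPR2 at 26.6. BMP4 at 4.85 and BMPR1A at 4.69 overlapped further down, followed by SMAD6 at 1.79 and BMP7 at 0.00171. The tables were normalised separately, so these levels order genes within a system and not between systems.

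**Figure D2:**
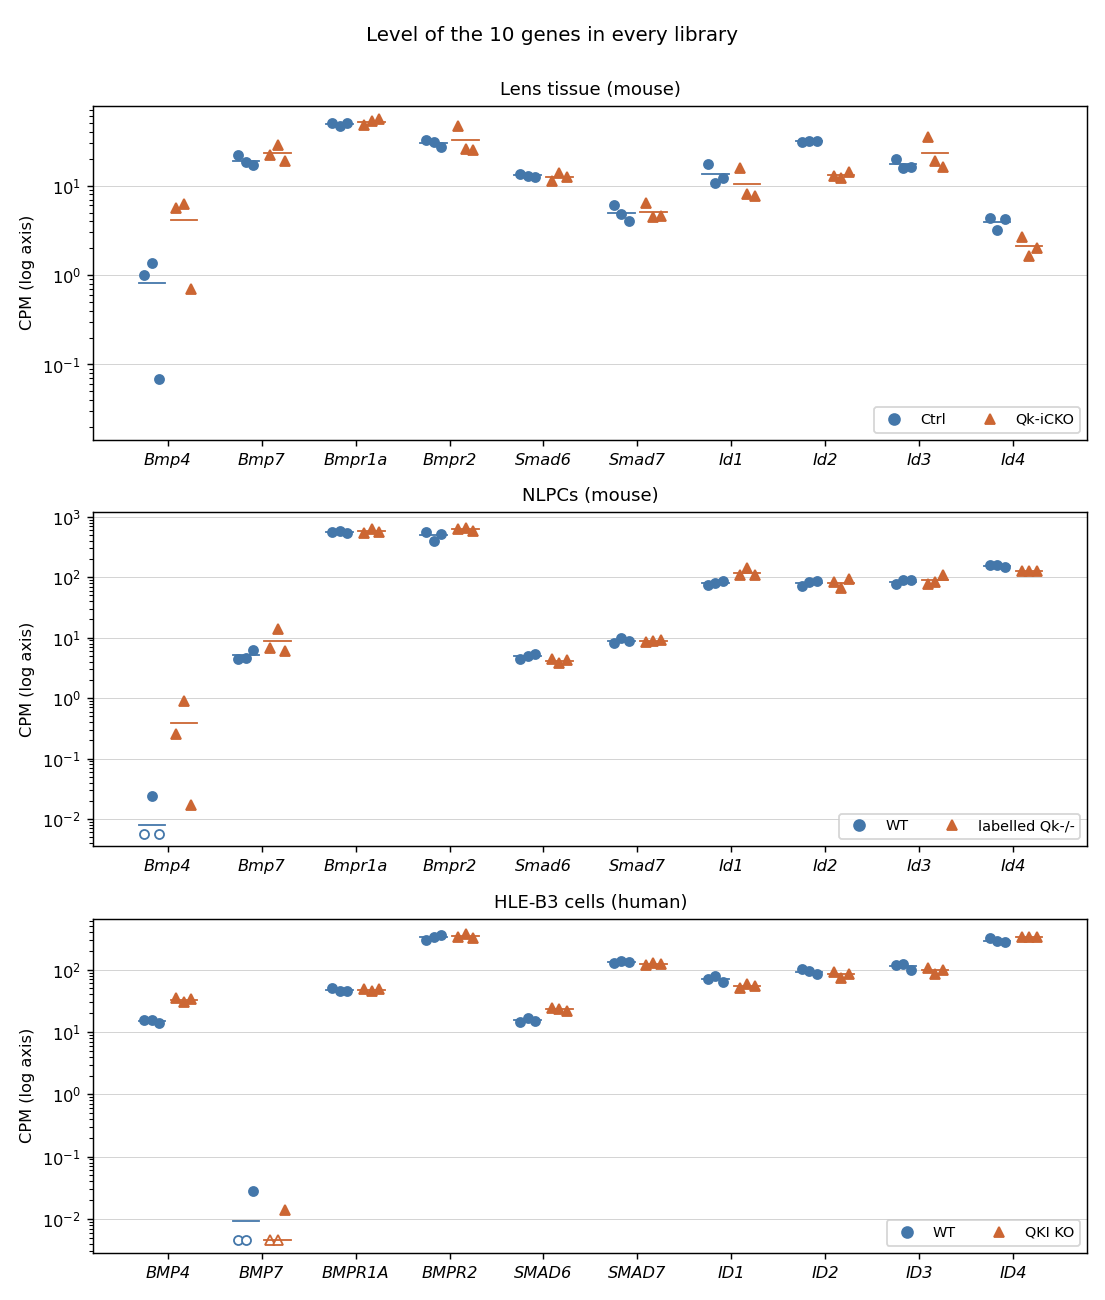
Level of each gene in every library, as TMM-scaled CPM on a log axis, for control (circles) and deletion (triangles) libraries with the mean of 3 as a line; open markers at the bottom edge are libraries with 0 counts. The ligands Bmp4 and Bmp7 are the genes found near 0, Bmp4 in WT NLPCs and BMP7 in HLE-B3 cells, and Bmp4 also spreads most within a lens group.

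Of the ligands, Bmp4 showed the widest spread. In Ctrl lenses it was at 0.994, 1.35 and 0.0686 CPM, and in Qk-iCKO lenses at 5.58, 6.19 and 0.707. Qk-iCKO lenses 1 and 2 were above every Ctrl lens, but Qk-iCKO lens 3 lay between Ctrl lenses, so the groups overlapped. The difference was 2.38 (SE 0.92) with an adjusted p of 0.140. With the replicate number as a block it was 2.41 with an adjusted p of 0.00451, and without Qk-iCKO lens 3 it was 2.87 with an adjusted p of 0.0464. It was also called with DESeq2 (2.35, adjusted p = 0.0474) and in edgeR with no filter on low counts (2.37, adjusted p = 0.00793), and thus in 4 of 12 alternatives. Summed markers of fibroblasts and mural cells were 183 and 200 CPM in Qk-iCKO lenses 1 and 2, 53.9 in Qk-iCKO lens 3 and 58.6 to 110 in Ctrl lenses. Their part in the Bmp4 values was not tested. An antisense pair of transcripts overlaps mouse Bmp4 (Gm15217 and Gm15222), and whether counting used strand is not given in the sources used here.

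In the NLPCs, where BMP4 was added as protein, Bmp4 RNA had counts of 0, 1 and 0 in WT and 14, 26 and 1 in the libraries labelled Qk-/-. It was too low for the filter and was not tested in the main fit. Among alternatives without that filter, DESeq2 gave 5.97 (adjusted p = 0.0301) and edgeR 5.36 (adjusted p = 0.175). Over the pooled libraries the ratio per depth was 51.0, with a counting interval of 8.65 to 2062 (95%), which covers counting error only, and the third library of the deletion group held 1 of its 41 counts. In HLE-B3 cells BMP4 was well measured, at 15.4, 15.5 and 14.1 CPM in WT and 35.4, 30.3 and 33.2 in QKI KO cells. Each QKI KO library was above every WT library. The difference was 1.13 (SE 0.086, adjusted p = 4.11e-08), a 2.19-fold higher level that was called under each of 12 alternatives. The median change of the 50 nearest tested genes was −0.15.

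Bmp7, a second ligand used in the cultures, was at 22.0, 18.2 and 16.8 CPM in Ctrl and 22.0, 28.6 and 18.7 in Qk-iCKO lenses. These groups overlapped, with a difference of 0.28 (SE 0.20, adjusted p = 0.396). In the NLPCs Bmp7 was at 4.36, 4.68 and 6.30 CPM in WT and at 6.78, 13.9 and 5.95 in the libraries labelled Qk-/-. The highest library, number 2 of the deletion group, was also the one least correlated with the others of its system (mean r 0.891), and the difference of 0.79 (SE 0.33) had an adjusted p of 0.181 and was 0.32 without that library. Human BMP7 was at or under the floor of 3 counts, with 2 counts over the WT and 1 over the QKI KO libraries, so no fold is given.

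The receptors did not pass the threshold in any system. Bmpr1a, the type I receptor, was at 50.2, 46.8 and 50.5 CPM in Ctrl and 47.5, 52.4 and 56.0 in Qk-iCKO lenses, a difference of 0.079 with a 95% interval of −0.23 to 0.38. In the NLPCs, where it was among the most abundant genes (percentile 99.3 of those tested), it was at 562, 591 and 544 CPM and at 546, 623 and 555, a difference of 0.023 (interval −0.18 to 0.22). Its 50 nearest tested genes there had a median change of 0.41, which left −0.38. In HLE-B3 cells BMPR1A was at 50.5, 45.5 and 45.8 and at 49.7, 44.8 and 48.5 CPM, a difference of 0.010 (interval −0.14 to 0.16). No bound of these intervals lay farther from 0 than 0.38, although the sign of the value turned in the NLPCs and HLE-B3 cells under some alternatives.

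Bmpr2, the type II receptor, was at 32.3, 30.4 and 27.2 CPM in Ctrl and 47.1, 25.8 and 25.2 in Qk-iCKO lenses. Qk-iCKO lens 1 alone stood above the Ctrl lenses, and the difference of 0.13 (adjusted p = 0.783) was −0.23 without it. In the NLPCs Bmpr2 was at 559, 404 and 520 CPM in WT and at 624, 664 and 582 in the libraries labelled Qk-/-. The groups did not overlap, with a difference of 0.33 (SE 0.13, adjusted p = 0.143) that was 0.19 without WT library 2, and the 50 nearest tested genes had a median change of 0.32. BMPR2 in HLE-B3 cells was at 303, 340 and 355 and at 332, 374 and 321 CPM, a difference of 0.042 (interval −0.10 to 0.19).

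Smad6, which blocks the BMP branch, was at 13.5, 13.0 and 12.6 CPM in Ctrl and 11.2, 13.7 and 12.4 in Qk-iCKO lenses. That difference was −0.069 (SE 0.14, adjusted p = 0.784). In the NLPCs it was at 4.49, 5.01 and 5.36 CPM in WT and 4.40, 3.79 and 4.28 in the libraries labelled Qk-/-. The groups did not overlap, and the difference of −0.25 (SE 0.19) had an adjusted p of 0.451. In HLE-B3 cells SMAD6 rose from 14.4, 16.6 and 15.02 to 23.9, 23.5 and 21.5 CPM, a difference of 0.58 (SE 0.091, adjusted p = 9.72e-05) that was called under each of 12 alternatives. The 50 nearest tested genes had a median change of −0.18.

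Smad7, which blocks both the BMP and the TGF-beta branch, was at 6.05, 4.85 and 3.98 CPM in Ctrl and 6.38, 4.45 and 4.54 in Qk-iCKO lenses (difference 0.060, adjusted p = 0.899, and −0.14 without Qk-iCKO lens 1). In the NLPCs it was at 8.28, 9.76 and 8.64 and at 8.63, 8.81 and 9.16 CPM, a difference of −0.0032 (interval −0.33 to 0.32). SMAD7 in HLE-B3 cells was at 129, 137 and 131 CPM in WT and 119, 128 and 124 in QKI KO cells. The groups did not overlap, and the difference of −0.095 (SE 0.058) had an adjusted p of 0.235. Human chromosome 18, on which SMAD7 lies, had a median change of −0.44 over 304 tested genes, and the 50 nearest of them −0.55, so SMAD7 stood 0.46 above its neighbours.

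Id2 gave the clearest result of the ID genes. It was at 30.6, 31.5 and 31.7 CPM in the Ctrl lenses and at 12.9, 12.3 and 14.3 in the Qk-iCKO lenses, or 31.3 ± 0.605 and 13.2 ± 1.04 (SD, n = 3). The groups were far apart and each was tight, with Qk-iCKO lens 1, the library of high TMM factor and low Y-linked counts, no different from the others. The difference was −1.25 (SE 0.13, interval −1.55 to −0.94, adjusted p = 0.00166), a level 0.422 times that of Ctrl. It was called under each alternative except scaling to total counts alone, where it was −0.96 with an adjusted p of 0.0524 and the median of all genes moved to 0.29. The 50 nearest tested genes had a median change of 0.037. In the same lenses the summed macrophage markers given above were higher and the summed lens fibre and astrocyte markers lower, without overlap of the groups. Only 1 of 12 tested fibre markers (median change −0.45) and 1 of 5 tested astrocyte markers (median 0.077) were called lower, however. The part of these markers was not tested, here or in the other lens results.

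Id2 did not show that difference elsewhere. In the NLPCs it was at 70.6, 82.7 and 87.1 CPM in WT and 82.8, 66.7 and 94.2 in the libraries labelled Qk-/-, a difference of 0.021 (interval −0.31 to 0.35). Its change was 1.36 higher in the NLPCs than in the lens (SE 0.19, adjusted p = 0.00113 for the interaction of deletion and system), and this passed under each of 17 alternatives. In that joint fit 1 of the 10 genes was called, against 8.53% of 16675 genes tested. ID2 in HLE-B3 cells was at 101, 93.5 and 83.8 and at 92.0, 73.0 and 86.8 CPM, a difference of −0.15 (SE 0.085, adjusted p = 0.213).

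**Figure D3:**
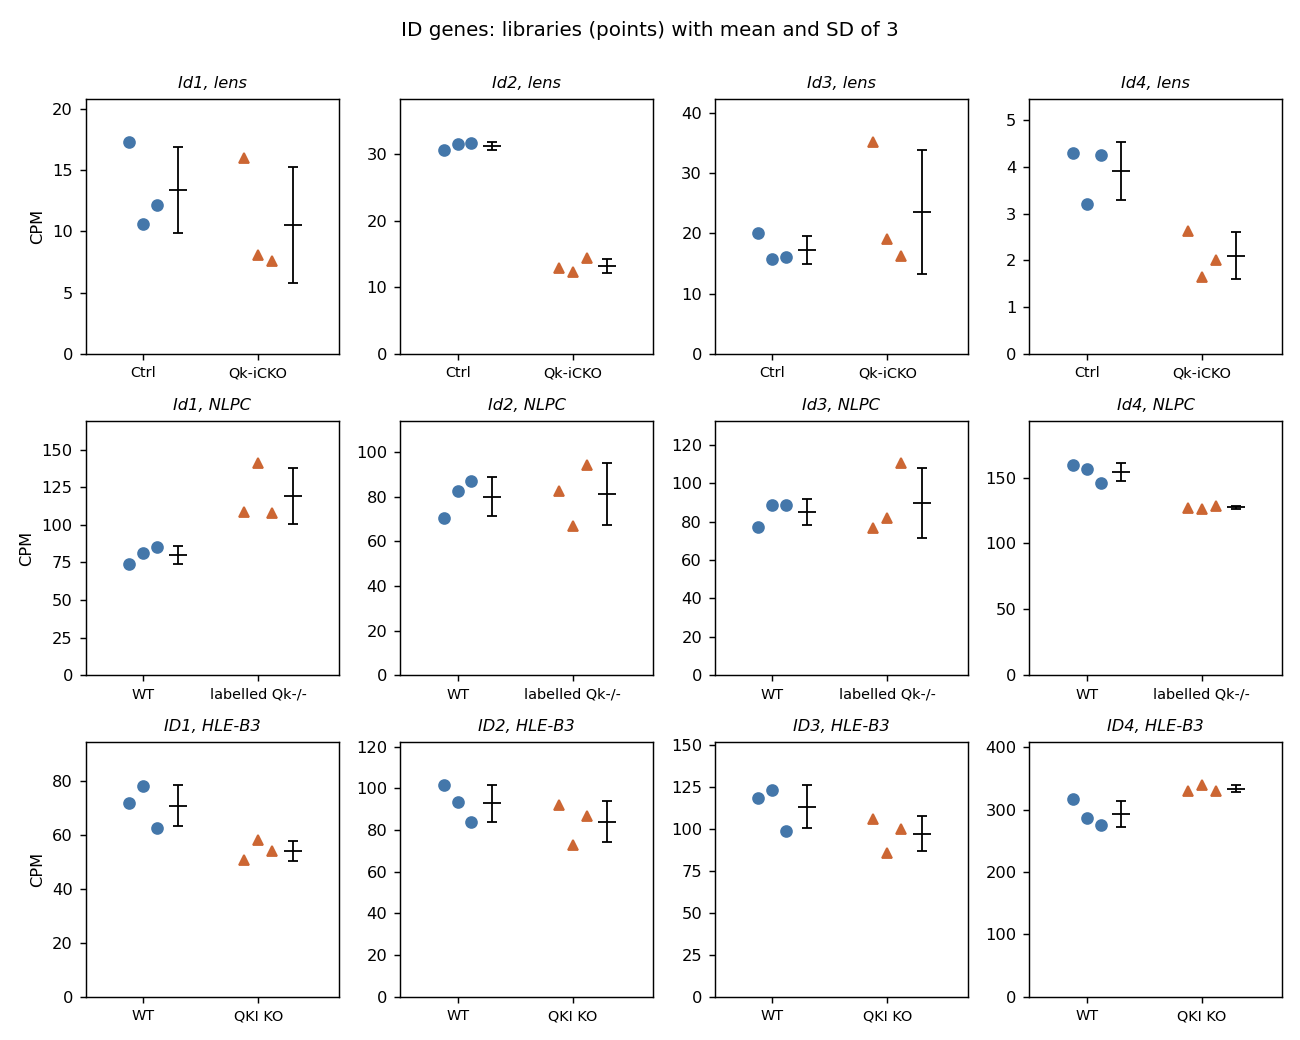
CPM of the 4 ID genes in each library of the 3 systems on linear axes from 0, with the mean and SD of 3 libraries in black; circles are control and triangles deletion libraries. The Id2 points of the lens separate (30.6 to 31.7 against 12.3 to 14.3 CPM) while those of the NLPCs and HLE-B3 cells overlap, and Id1 goes up in the NLPCs (0.58) and down in HLE-B3 cells (−0.39).

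Id1 was at 17.3, 10.6 and 12.1 CPM in Ctrl and 16.0, 8.03 and 7.57 in Qk-iCKO lenses. The first Qk-iCKO lens lay within the Ctrl range, with a difference of −0.33 (SE 0.32, adjusted p = 0.557) that was −0.77 without that lens (adjusted p = 0.0873). In the NLPCs Id1 rose from 73.8, 81.0 and 85.2 CPM in WT to 109, 141 and 108 in the libraries labelled Qk-/-. All 3 of these were above every WT library, with a difference of 0.58 (SE 0.13, adjusted p = 0.0252). The call was lost when single libraries were left out, with adjusted p-values of 0.125, 0.0991 and 0.0939 without WT library 1, 2 or 3 (differences 0.51, 0.57 and 0.61) and of 0.0590 without library 1 of the deletion group (0.63). The change was 1.00 higher in the NLPCs than in the lens (SE 0.38, adjusted p = 0.130). With the replicate block within system this was 1.05 with an adjusted p of 0.0177, and without Qk-iCKO lens 1 it was 1.45 with an adjusted p of 0.00976.

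In HLE-B3 cells ID1 fell, from 72.1, 78.1 and 62.8 CPM in WT to 50.6, 58.0 and 54.0 in QKI KO cells. No QKI KO library reached the lowest WT library. The difference was −0.39 (SE 0.080, adjusted p = 0.00117), called under each of 12 alternatives, and its 50 nearest tested genes had a median of −0.17.

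Id3 was at 20.0, 15.8 and 16.1 CPM in Ctrl and 35.2, 19.1 and 16.2 in Qk-iCKO lenses. The first Qk-iCKO lens stood far above the rest and the others lay within the Ctrl range, so the difference of 0.45 (SE 0.29) had an adjusted p of 0.361. In the NLPCs it was at 77.2, 88.7 and 88.8 and at 76.7, 82.1 and 110 CPM, a difference of 0.081 (interval −0.26 to 0.42). ID3 in HLE-B3 cells was at 118, 123 and 98.4 CPM in WT and 106, 85.7 and 99.9 in QKI KO cells. These overlapped, with a difference of −0.22 (SE 0.086, adjusted p = 0.0589), and it was called in 5 of 12 alternatives, among them those without WT library 3 (−0.31, adjusted p = 0.00868) and without QKI KO library 1 (−0.28, adjusted p = 0.0457).

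Id4 was the least abundant ID gene of the lens, at 4.31, 3.21 and 4.26 CPM in Ctrl and 2.64, 1.65 and 2.02 in Qk-iCKO lenses. The groups did not overlap, and the difference of −0.88 (SE 0.27) had an adjusted p of 0.0808. In the NLPCs, where it was the ID gene of highest CPM, Id4 was at 159, 156 and 146 in WT and 127, 126 and 129 in the libraries labelled Qk-/-. Again the groups did not overlap, with a difference of −0.27 (SE 0.077, adjusted p = 0.0608), and it passed without library 2 of the deletion group (−0.26, adjusted p = 0.0289) and with DESeq2 (−0.27, adjusted p = 0.0145). The change was 0.69 higher in the NLPCs than in the lens (SE 0.24, adjusted p = 0.0992), which passed without Qk-iCKO lens 1 (0.93, adjusted p = 0.0338).

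In HLE-B3 cells ID4 went the other way, from 316, 286 and 276 CPM in WT to 330, 340 and 330 in QKI KO cells. Each QKI KO library was above every WT library, but the rise was small, at 0.19 (SE 0.058, adjusted p = 0.0193). The call was lost without WT library 2 (0.18, adjusted p = 0.0705), WT library 3 (0.15, 0.0926), QKI KO library 1 (0.20, 0.0568) or QKI KO library 3 (0.21, 0.0508), and with total counts alone (0.13, 0.0817). Its 50 nearest tested genes had a median change of 0.24, which left −0.049. Antisense genes overlap Id4 in mouse (A330033J07Rik and Gm49291) and in human (LNC-LBCS).

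Across the 12 mouse libraries, with the mean of each system removed, the mean log2 level of Id1, Id2, Id3 and Id4 was followed most closely by Id4 (Pearson r 0.836), Id1 (0.789) and Id2 (0.738) and least by Id3 (0.263). Of 11208 genes tested in both mouse systems, Thyn1 (0.971), Rapgef2 (0.926), Ccdc85c (0.911), Setd7 (0.904) and Nedd4 (0.903) had the highest r with that mean. Each ID gene is itself part of that mean, so a positive r of an ID gene is partly built in. The libraries share the deletion design, so the values are a description. Within a system the ID genes did not move as one. Over the 6 lens libraries Id2 went with Id4 (r 0.895) and against Id3 (−0.494), while over the 6 NLPC libraries Id1 went against Id4 (−0.924) and over the 6 HLE-B3 libraries ID2 went with ID3 (0.923).

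The surroundings of these genes in the pathway were read from a list of 76 other BMP and TGF-beta pathway genes. In the lens 9 rose and 2 fell of 52 tested (8.38% and 3.88% of all genes), with a median of 0.29 against 0.0064 over all genes. Receptors and secreted inhibitors held 6 of the 9 rises. Grem1, a secreted BMP antagonist, had 4 counts over the Ctrl lenses and was at 1.595, 1.65 and 2.32 CPM in Qk-iCKO lenses (fitted difference 4.10, adjusted p = 0.00825). Tgfbr2, the type II TGF-beta receptor, was at 0.249, 0.214 and 0.412 and at 3.44, 2.90 and 3.23 CPM (3.40, adjusted p = 0.00158), and Fst, follistatin, rose by 3.01 (adjusted p = 0.0174). Tgfbr3, a TGF-beta co-receptor, was at 3.23, 2.57 and 1.24 and at 25.7, 13.4 and 5.05 CPM (2.67, adjusted p = 0.0295). Most of these rises were at a few CPM, in libraries where the macrophage and endothelial markers were also higher. Bmper, a BMP-binding secreted protein, fell from 18.2, 19.6 and 21.8 to 5.77, 6.78 and 9.29 CPM (−1.46, adjusted p = 0.00488), and Hey1, a target gene, fell by −0.69 (adjusted p = 0.0282). With the replicate block 17 of the list were called, without Ctrl lens 1 or 2 only 6 were, and with total counts alone Hey1 was at −0.38 with an adjusted p of 0.457. Without Ctrl lens 1, Grem1 (4.00, adjusted p = 0.0573) and Fst (2.57, adjusted p = 0.0532) lost their calls, Fst also without Ctrl lens 2 (3.08, adjusted p = 0.0697). Among the fits with 1 lens left out, Tgfbr3 kept its call only without Qk-iCKO lens 3 and Hey1 only without Qk-iCKO lens 1. Their differences in these fits ranged from 1.98 to 3.08 and from −0.77 to −0.60. Over all alternatives Tgfbr3 was called in 8 of 13 and Hey1 in 7 of 13.

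In the NLPCs 11 rose and 7 fell of 63 tested (4.74% and 5.96% of all genes). The receptors moved in both directions. Bmpr1b, another type I BMP receptor, fell from 69.6, 66.5 and 63.1 CPM to 34.3, 31.2 and 33.1 (−1.01, SE 0.094, adjusted p = 7.01e-04), while Tgfbr2 rose from 29.7, 27.1 and 32.7 to 96.4, 74.1 and 94.7 CPM (1.57, adjusted p = 5.38e-04) and Tgfbr3 rose by 1.52 (adjusted p = 7.77e-04). Secreted inhibitors were also split, with 4 higher and 2 lower of 10. Bmper rose by 1.32 (adjusted p = 8.51e-04), the reverse of its direction in the lens, and Nog, whose protein had been added to the cultures before BMP, fell from 24.1, 19.8 and 24.5 to 10.01, 3.89 and 9.68 CPM (−1.52, adjusted p = 0.0211). Skil, an intracellular inhibitor, fell by −1.01 (adjusted p = 8.02e-04), Hey2 by −1.48 (adjusted p = 0.00623), and Gata2 rose by 1.61 (adjusted p = 0.00528). Nog lost its call when WT library 1, 2 or 3 or library 1 of the deletion group was left out (adjusted p 0.0997, 0.0672, 0.114 and 0.0533, differences −1.49, −1.63, −1.48 and −1.73). The count fell to 11 without WT library 2 or 3. The sum of 7 neural stem cell markers was 6210 to 6716 CPM in WT and 4314 to 4775 in the libraries labelled Qk-/-, with 3 of 7 lower, and 3 of 6 neuron markers were higher. Their part in these values was not tested.

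**Figure D4:**
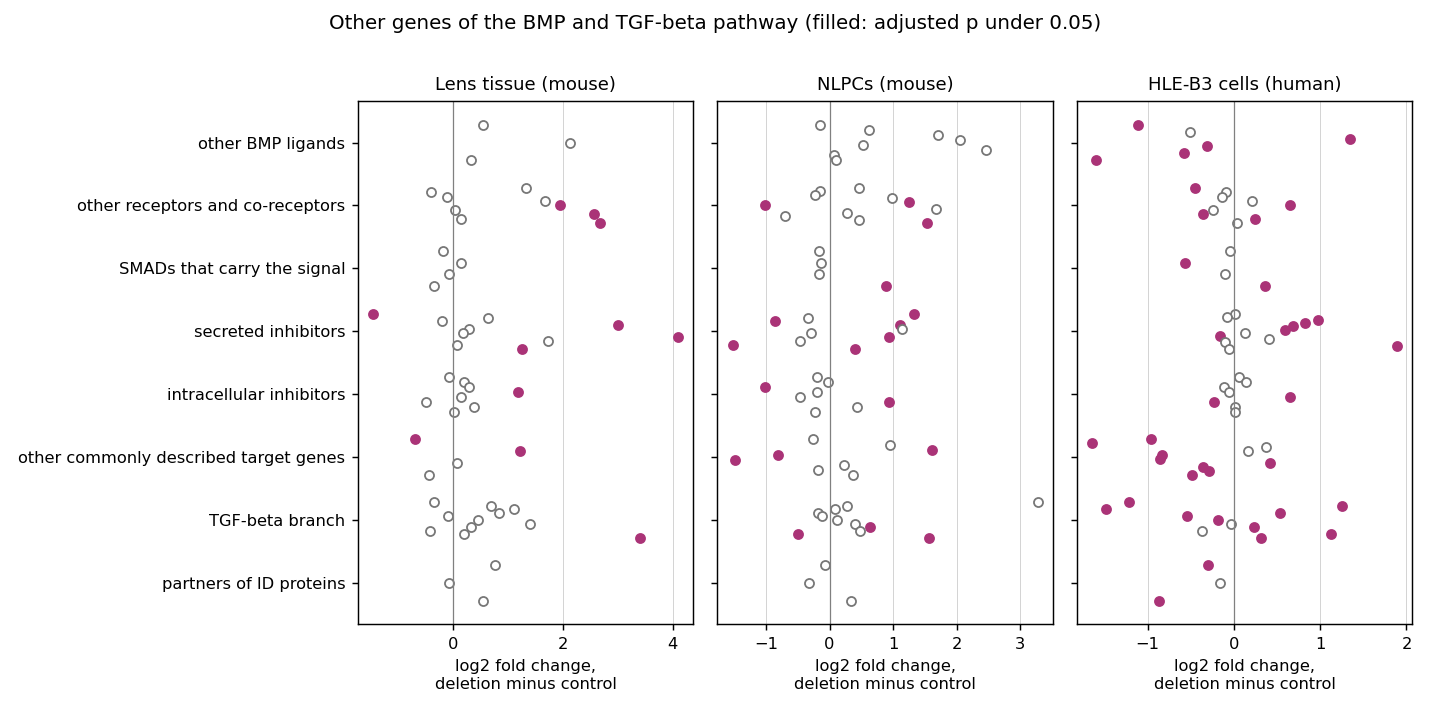
Log2 fold change, deletion minus control, of the tested genes of 8 lists of other BMP and TGF-beta pathway genes in each system (n = 3 libraries per group); filled points have an adjusted p under 0.05, and MSX2 in HLE-B3 cells, near 0 after deletion, is left out. In HLE-B3 cells 8 of 11 genes of the target list, which holds MSX2 but not the ID genes, SMAD6 or SMAD7, were lower. The filled lens points are mostly above 0 (9 higher, 2 lower).

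In HLE-B3 cells 16 rose and 23 fell of 64 tested (17% and 16.3% of all genes). The listed target genes leaned to one side, with 8 lower and 1 higher of 11 and a median of −0.49, and the 8 and 1 were the same under each scaling tried. That list leaves out the ID genes, SMAD6 and SMAD7. Of these, SMAD6 and ID4 rose, ID1 fell, and ID2, ID3 and SMAD7 were not called. The list was chosen with earlier results of these data known. Beside the target genes, summed fibroblast and mural markers were 4155 to 4224 CPM in WT and 2347 to 2633 in QKI KO cells (3 lower and 2 higher of 8 tested), and neuron markers 21.2 to 24.3 and 9.84 to 13.6 (3 of 3 lower). Summed cornea keratins were 10.4 to 15.1 and 42.5 to 48.3 (1 of 1 higher) and lens fibre markers 484 to 575 and 876 to 1017 (1 higher and 1 lower of 3). Of these lists, 3 of 4 keratins, 11 of 13 fibre markers and 4 of 6 neuron markers averaged under 1 CPM, so their sums rest on few genes. The part of these cell markers was not tested. MSX2, a homeobox gene commonly switched on by BMP, was at 8.96, 7.20 and 8.74 CPM in WT cells and had 1 count over the QKI KO libraries, against 1884 over the WT libraries. Per depth this is a ratio of 1794, with a 95% counting interval of 322 to 70910 that covers counting error only. DLX3, another homeobox target, was at 0.967, 1.30 and 1.17 and at 0.382, 0.290 and 0.423 CPM (−1.65, adjusted p = 0.00473). KLF10 was the gene of the target list that rose, by 0.41 (adjusted p = 1.08e-04). Of the ligands GDF7 was 0.551, 0.631 and 0.557 and then 0.150, 0.217 and 0.205 CPM (−1.60, adjusted p = 0.0378, lost when any library was left out, at 0.0639 to 0.108, with a replicate block, at 0.0640, and with no filter, at 0.0932), while BMP8B rose by 1.35 (adjusted p = 0.00304). NOG, a secreted antagonist, rose from 0.563, 0.398 and 1.198 to 3.06, 2.81 and 2.14 CPM (1.89, adjusted p = 5.77e-04), as 5 of 12 secreted inhibitors did, with 1 lower (0 lower with DESeq2-type size factors). In the TGF-beta branch INHBB (1.26, adjusted p = 2.47e-06) and TGFBR1 (1.13, adjusted p = 5.21e-10) rose and LTBP1, which holds latent TGF-beta in the matrix, fell (−1.48, adjusted p = 3.82e-08). SMAD4, the shared partner of the signalling SMADs, was lower by −0.57 (adjusted p = 1.10e-06) and SMAD9 was higher by 0.36 (adjusted p = 0.00454), both named after their values were seen, as was KLF10. SMAD4 lies on human chromosome 18, and its 50 nearest tested genes had a median of −0.49, while those of SMAD9 had −0.14. Of the E proteins that ID proteins bind, TCF4 (−0.87, adjusted p = 1.37e-08) and TCF12 (−0.31, adjusted p = 3.32e-04) fell, also named after their values were seen. TCF4 also lies on chromosome 18, and the 50 nearest tested genes had medians of −0.44 (TCF4) and −0.22 (TCF12). In the lens Tcf12 had a difference of 0.77 (adjusted p = 0.0821) and in the NLPCs Tcf4 one of 0.33 (adjusted p = 0.0519).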

How the data were processed

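The authors aligned stranded paired-end RNA-seq reads with STAR 2.6.1b to mm10 or hg19 and counted genes with HTSeq 0.11.0, and they deposited raw counts per gene for lens, NLPCs and HLE-B3 cells. The submitters' processing notes also name HISAT2 2.0.4 and featureCounts with no role. Whether counting used strand is not given in the sources used here. Counts were fitted here within each table with edgeR 4.0.16 (filterByExpr, TMM, glmQLFit and glmQLFTest, R 4.3.3, Benjamini-Hochberg adjustment), which left 12201, 20371 and 19049 genes. CPM are on TMM-scaled library sizes. Genes of both mouse tables were joined by symbol for 1 fit of deletion, system and their interaction, where matching by identifier had been planned. DESeq2 1.42.0 was an alternative. The scripts were tested on simulated data. The 10 genes, the marker lists and the pathway lists were chosen with earlier results of these data known. Pathway genes were named as the up to 4 largest rises and falls past the threshold in each system. Deviations from group means of same-numbered libraries correlated in the lens (r 0.233, 0.135 and 0.521) and the NLPCs (0.122, 0.323 and 0.148), a hint from the data that the numbers pair, although only 1 of 3 pairs in each correlated best with its own number. They did not in HLE-B3 cells. No pair of replicates agreed within sampling noise. Counting intervals are exact at 95%.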

Additional observations from a re-analysis of the deposited data

Results flagged for a closer look

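Id2 differed between the mouse systems by a test of the difference itself: the change after deletion was 1.36 higher in the NLPCs than in the lens on the log2 scale (SE 0.19, adjusted p = 0.00113, edgeR), with all 3 Qk-iCKO lenses below all Ctrl lenses and overlapping groups in the NLPCs. The deletion groups differ in tissue, age and culture, which cannot be told apart here.

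For 3 genes the groups were ordered in opposite ways in different systems, and these differences between mouse and human tables were not tested. They make 3 of the 8 members that NLPC and HLE-B3 tables could both test, where 13.3% of 11223 genes matched by symbol were ordered in opposite ways without overlap, and 1 of 9 in lens and HLE-B3 cells (11.8% of 9642). Id1 was higher in all libraries labelled Qk-/- of the NLPCs and lower in all QKI KO HLE-B3 libraries (−0.39). Id4 was lower in every deletion library of the lens and of the NLPCs and higher in every QKI KO library (0.19), where the adjusted p passed 0.05 only in HLE-B3 cells. Smad6 was lower in the libraries labelled Qk-/- of the NLPCs (adjusted p = 0.451) and higher in QKI KO cells (0.58).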

How the results depend on the processing

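The number of the 10 genes called in the lens (1) was 0 with total counts alone, and 2 with no filter on low counts, with DESeq2 or with the replicate block, and 1 to 2 when each lens was left out. The lens pathway count (11) was 19 with no filter, 6 with a minimum of 10 counts, 17 with the block and 6 to 16 when each lens was left out. In the NLPCs the member count (1) was 3 with DESeq2 and 0 to 2 when each library was left out, and the pathway count (18) 11 to 27. In HLE-B3 cells the member count (4) was 5 with no filter and with the count minimum, where ID3 was added, and 3 to 4 when each library was left out, and the pathway count (39) was then 34 to 39. The replicate block there gave 4 and 37. The interaction count (1) was 2 with DESeq2 and 2 with the block, and 1 to 3 when each library was left out. The cause was not tested.

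Signs turned only for members that were not called, except ID4. With total counts alone Id1 was 0.066 and Smad6 0.20 in the lens, Smad7 0.050 in the NLPCs, BMPR1A −0.046 and BMPR2 −0.015 in HLE-B3 cells, and the interactions of Bmpr1a −0.27, Bmpr2 −0.13 and Smad7 −0.34. With no filter Bmpr1a was −0.0062 in the NLPCs, and its interaction −0.021 and that of Smad7 −0.034. Smad7 in the NLPCs was 0.013 with DESeq2's size factors, 0.036 with the count minimum, 0.0042 with DESeq2 and 0.00016 with the replicate block, which changed no other call than those given. Less the median of its neighbours, an alternative chosen after seeing the data, ID4 was −0.049. When single libraries were left out, the lens values spanned −0.23 to 0.29 (Bmpr2), −0.15 to 0.0064 (Smad6) and −0.14 to 0.21 (Smad7), those of the NLPCs −0.034 to 0.053 (Bmpr1a), −0.12 to 0.15 (Id2), −0.12 to 0.18 (Id3) and −0.064 to 0.053 (Smad7), those of HLE-B3 cells −0.018 to 0.079 (BMPR1A) and −0.024 to 0.10 (BMPR2), and the interactions −0.047 to 0.10 (Bmpr1a), −0.51 to 0.15 (Id3) and −0.15 to 0.23 (Smad7). Total counts alone moved the calls over all genes in the lens from 1023 higher and 473 lower to 768 and 116, and in HLE-B3 cells from 3229 and 3112 to 2648 and 3716. Of 846 single-gene alternatives 738 kept direction and side of the threshold. Counts near 0 limit Bmp4 in the NLPCs and BMP7 in HLE-B3 cells, in libraries that were deeper than those of the lens.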
